A study of Mus musculus with 6 samples.

Results

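Type I interferon-stimulated genes were examined in Tregs with and without Zfp335, a zinc finger transcription factor. The 44 genes were chosen by symbol as antiviral effectors, nucleic acid sensors and transcription factors that interferon-α and interferon-β induce, with guanylate-binding proteins left out. Of these, 42 had a row among the 32285 rows of the count table, and all 42 were among the 17307 genes tested. Mx1 and Mx2 were not analysed here.

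CD4+CD25+ cells were sorted from spleens of C57BL/6 mice, and their total RNA was sequenced in 3 WT and 3 KO libraries. KO cells came from ERCre+Zfp335f/f mice, in which a Cre recombinase fused to a modified estrogen receptor becomes active in any cell type once tamoxifen is given. The sample labels call the WT animals littermates of wild type and do not mention tamoxifen, while the study's methods give ERCre mice under the same tamoxifen treatment as controls, so that it is not settled whether WT cells also carried Cre. According to those methods, tamoxifen was given from 6 weeks of age in 3 injections on days 1, 3 and 5, and mice were killed on day 7. The sort used no Foxp3 reporter, and whether a library held cells of 1 mouse or several is not given in the sources used here, so that p-values measure the spread between these libraries.

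Type I interferons bind a receptor made of IFNAR1 and IFNAR2, whose kinases JAK1 and TYK2 phosphorylate STAT2. STAT2 joins IRF9 in a complex called ISGF3, which binds the interferon-stimulated response element (ISRE) in promoters and induces genes that block viral RNA, translation and release. IRF7 amplifies the response, USP18 dampens it at the receptor, and T cells express many of these genes at a tonic level without infection.

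Zfp335 itself was measured at 124, 120.7 and 115 CPM (a count set against the library total as scaled by edgeR's TMM method) in WT replicates 1, 2 and 3 and at 15.0, 14.3 and 15.1 CPM in KO replicates 1, 2 and 3, a log2 fold change of -3.02. Libraries held 133283969 to 209041812 counts. The Treg marker Foxp3 and the CD4 T cell marker Cd4 averaged 1136 and 687 CPM in WT and 1052 and 703 CPM in KO. Of 10 Treg and CD4 T cell markers 3 were lower, Il2ra (-0.15), Cd3g (-0.12) and Foxp3 (-0.11), and 2 were higher, Ctla4 (0.65, from a mean of 410 to 645 CPM) and Tnfrsf18 (0.12). At the same threshold, described below, 12.1% of all genes tested were lower and 12% were higher. Xist, the RNA of the inactive X chromosome, averaged 0.272 CPM in WT and 134.6 CPM in KO, so that genotype and sex of the mice cannot be told apart.

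Most interferon-stimulated genes were lower in KO Tregs, each by a small amount. At an adjusted p under 0.05 (edgeR's quasi-likelihood test, Benjamini-Hochberg over all genes), 30 of the 42 genes were lower and 0 were higher, while 12.1% of all genes tested were lower and 12% were higher (14.9% and 9.37% with library size as the only scaling, under which 31 of the 42 were lower and 0 higher). None of the 42 was higher at an unadjusted p under 0.05 in the same test, and none at an adjusted p under 0.05 by DESeq2 or by limma-voom. When single libraries were left out, 25 to 30 of the 42 were lower, with the fewest without KO replicate 2. With only genes of at least 1 CPM in 3 libraries kept, 16.4% of all genes were lower and 16.6% were higher. The shares of all genes were not matched for expression level. The list was chosen with earlier results of these data known. In 31 of the 42 genes all KO libraries lay below all WT libraries, as they did in 19.1% of all genes, and in 0 of the 42 all lay above, as they did in 19.3%. The median log2 fold change was -0.24 over the 42 genes and -0.0042 over all genes tested. Fold changes ran from -0.56 for Cmpk2 to 0.10 for Ifi44 on the log2 scale, and 0 of the 42 genes passed the study's cutoffs of a 1.5-fold change with p under 0.05 and adjusted p under 0.1, which 4.37% of all genes passed in the lower direction. The summed level of the 42 genes was 3512, 3588 and 3633 CPM in WT replicates 1, 2 and 3 and 3116, 3088 and 3160.4 CPM in KO replicates 1, 2 and 3, with no overlap between the groups. In bulk RNA, fewer cells that express a gene and less RNA per cell cannot be told apart.

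**Figure D1:**
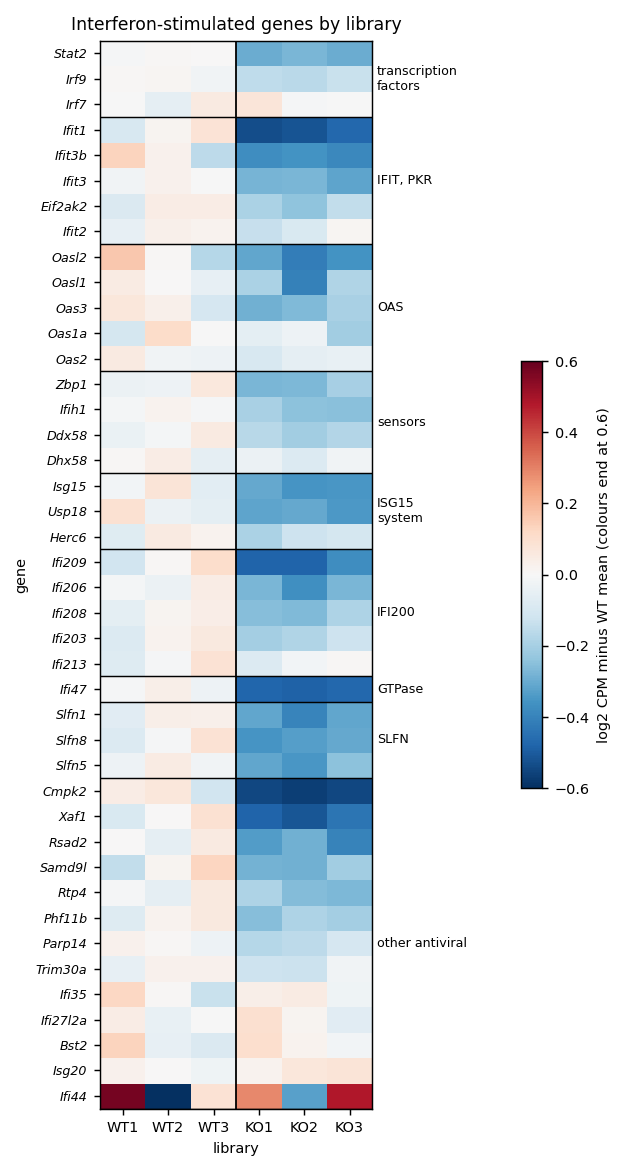
Each row is 1 of the 42 interferon-stimulated genes and each column 1 library, with colour for log2 CPM minus the WT mean of that gene and genes grouped by role. The KO columns are blue for the 30 genes called lower, and the rows of Irf7, Bst2, Ifi27l2a, Ifi35, Isg20 and Ifi44 show no such block.

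Markers of several other cell types moved with the groups. All 10 B cell markers were lower in KO, with a summed level of 698 to 759 CPM in WT and 518 to 525 CPM in KO, led by Ighm and Cd79b. All 8 neutrophil markers were lower (19.5 to 26.6 CPM against 1.31 to 2.04 CPM, led by Ngp and Ltf), as were all 5 red cell markers reported (36.5 to 43.4 CPM against 1.81 to 2.31 CPM, led by Hba-a1 and Hbb-bt). Of 6 conventional dendritic cell markers 4 were lower (6.39 to 7.03 CPM against 4.24 to 4.41 CPM). Of 10 macrophage and monocyte markers 3 were lower, Lyz2, Itgam and Cd14, and 3 were higher, the complement genes C1qa, C1qb and C1qc. The median log2 fold change over the 10 was -0.067. Their summed level of 52.3 to 56.0 CPM in WT and 40.9 to 44.8 CPM in KO included Lyz2, which averaged 19.7 CPM in WT and 7.36 CPM in KO. Of 6 plasmacytoid dendritic cell markers Siglech was lower, from a mean of 2.76 CPM to 1.38 CPM (adjusted p = 4.85e-04), and Ccr9 was higher (0.28), with a median log2 fold change of -0.44 over the 6. Their summed level of 138 to 147 CPM in WT and 142 to 147 CPM in KO was mostly Pacsin1, which averaged 115 CPM in WT and 116 CPM in KO. Of 2 CD8 T cell markers 0 were called, with a summed level of 8.34 to 9.71 CPM in WT and 8.62 to 8.65 CPM in KO. Of 4 NK cell markers 1 was lower and 0 were higher (22.8 to 25.2 CPM against 24.1 to 26.4 CPM). The part of all these cells in the changes of interferon-stimulated genes was not tested.

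Promoter windows were searched for the core letters of the element that ISGF3 binds. RefSeq promoter windows (GRCm38.p6, 250 bases before to 50 after the start) were matched by symbol for 35 of the 44 genes. The letters GAAANNGAAA, or TTTCNNTTTC on the other strand, stood in a window of 20 of these 35 genes (57.1%), against 3.99% of the 27025 genes with a window. They were found in 16 of 26 genes called lower (61.5%) and in 4 of 9 genes tested and not called (44.4%). The windows of Cmpk2, Xaf1, Ifi47 and Ifi209, which were among the genes with the largest decreases, held no match. The gamma-activated sequence TTCNNNGAA, which reads the same on both strands, was found in 6 of the 35 genes (17.1%) against 9.55% of all genes, in 1 of the 26 called lower and in 5 of the 9 not called. A match describes the letters of the window and is not a measured binding site.

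The stretches below surround the match nearest the start, 5′ to 3′ on the strand of the gene, with every GAAANNGAAA or TTTCNNTTTC match in capitals, and are shown for effectors and a transcription factor that were lower and for genes that were not called.
Isg15, chr4:156200855-156200904, minus strand: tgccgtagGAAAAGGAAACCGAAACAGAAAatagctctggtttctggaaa
Ifit1, chr19:34640784-34640833, plus strand: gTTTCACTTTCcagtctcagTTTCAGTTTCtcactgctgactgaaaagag
Ifit3, chr19:34583387-34583436, plus strand: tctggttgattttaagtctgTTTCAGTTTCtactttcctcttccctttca
Ifit3b, chr19:34607783-34607832, plus strand: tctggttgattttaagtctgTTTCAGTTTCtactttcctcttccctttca
Rsad2, chr12:26456543-26456592, minus strand: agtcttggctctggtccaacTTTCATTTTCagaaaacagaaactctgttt
Oas3, chr5:120777705-120777754, minus strand: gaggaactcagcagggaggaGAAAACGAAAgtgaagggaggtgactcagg
Stat2, chr10:128270256-128270305, plus strand: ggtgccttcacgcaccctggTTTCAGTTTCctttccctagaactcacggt
Ifi206, chr1:173491329-173491378, minus strand: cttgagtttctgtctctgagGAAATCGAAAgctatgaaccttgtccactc
Ifi208, chr1:173673587-173673636, plus strand: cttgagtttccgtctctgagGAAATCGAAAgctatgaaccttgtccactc
Ifi213, chr1:173599316-173599365, minus strand: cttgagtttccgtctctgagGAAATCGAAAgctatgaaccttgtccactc
Bst2, chr8:71537567-71537616, minus strand: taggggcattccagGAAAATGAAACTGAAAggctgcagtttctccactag
In Isg15 overlapping matches follow each other, the last beginning 66 bases before the start, and Bst2, which was not called, carries a like run beginning nearest at 124 bases. The stretches of Ifit3 and Ifit3b were identical over 50 bases, and so were those of Ifi208, called lower, and Ifi213, not called. That of Ifi206 differed from both by 1 base.

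Of the transcription factors, Stat2 and Irf9 were lower in KO and Irf7 was not called. Stat2 (chr10:128270559-128292849, plus strand) was at 137, 138 and 138 CPM in WT replicates 1, 2 and 3 and at 112, 114 and 112 CPM in KO replicates 1, 2 and 3. Its groups stood far apart relative to their spread, and the level fell by 18.2% (-0.29 on the log2 scale, standard error 0.032, adjusted p = 2.09e-05). Irf9 (chr14:55603571-55610030, plus strand), the DNA-binding subunit of ISGF3, was at 166, 167 and 162 CPM in WT and at 148, 147 and 151 CPM in KO. This was a smaller change without overlap, -0.15 (standard error 0.032, adjusted p = 0.00385), and Irf9 shares 123 exon bases on the same strand with Rnf31. Irf7 (chr7:141262706-141266481, minus strand) was at 112, 108 and 117 CPM in WT and at 118, 112 and 112 CPM in KO. These values overlapped, and the 95% interval of the log2 fold change of 0.021 ran from -0.063 to 0.10 (adjusted p = 0.76), with a sign that turned to -0.010 under library size as the only scaling. The log2 ratio of Irf7 to Stat2 within a library, which no scaling alters, was -0.29 ± 0.056 (SD, n = 3) in WT and 0.016 ± 0.053 (SD, n = 3) in KO (two-sided exact permutation p = 0.1, the smallest that 3 against 3 libraries allow). This pair was chosen after its values were seen.

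**Figure D2:**
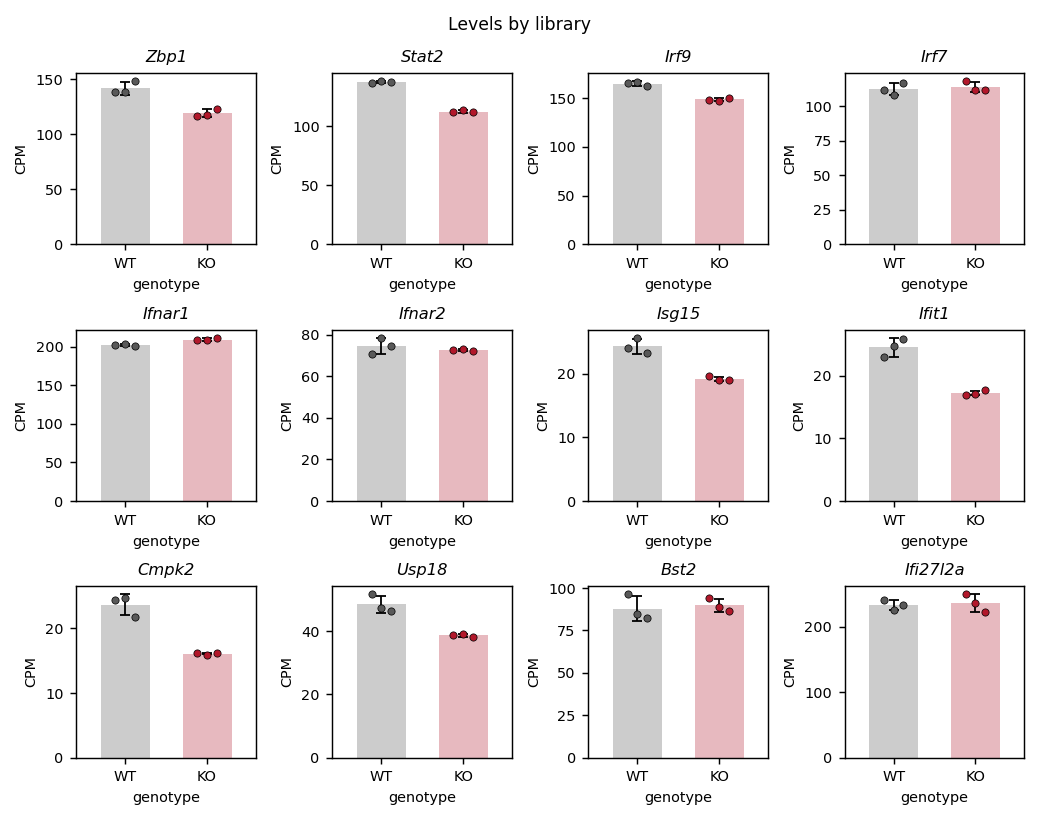
CPM of 12 genes in each library (points), with the group mean (bar) and SD (line), for WT and KO. Zbp1, Stat2, Irf9, Isg15, Ifit1, Cmpk2 and Usp18 show KO points below WT points, while Irf7, Ifnar2, Bst2 and Ifi27l2a overlap. The KO points of Ifnar1 lie slightly above its WT points.

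Among the genes that act on RNA and translation, 4 of 5 were lower. Ifit1 (chr19:34640871-34650009, plus strand), which binds viral RNA lacking a host cap, was at 22.9, 24.8 and 25.9 CPM in WT replicates 1, 2 and 3 and at 17.0, 17.1 and 17.7 CPM in KO replicates 1, 2 and 3. KO fell by 29.7% (-0.50 on the log2 scale, standard error 0.056, adjusted p = 2.47e-05). Ifit3b (chr19:34607970-34613401, plus strand), a close copy of Ifit3, was at 5.76, 5.33 and 4.70 CPM in WT and at 4.05, 4.08 and 4.01 CPM in KO. The WT libraries spread more than the KO libraries without reaching them (-0.39, standard error 0.096, adjusted p = 0.00979). Of the 50-base stretches of Ifit3 and Ifit3b, 51.2% and 44.5% occurred in the other gene, so that counts of this pair could be split between them by the authors' counting. Ifit3 had a log2 fold change of -0.29, and Eif2ak2, which encodes the kinase PKR that stops translation upon binding double-stranded RNA, one of -0.19. Ifit2 was not called at -0.070, with a 95% interval from -0.18 to 0.036. The log2 ratio of Ifit2 to Ifit1, neighbours on chromosome 19, was 0.57 ± 0.053 (SD, n = 3) in WT and 1.01 ± 0.048 (SD, n = 3) in KO (two-sided exact permutation p = 0.1), a pair chosen after its values were seen.

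OAS enzymes make 2′-5′ oligoadenylates that activate RNase L. Of the 5 genes of the family listed 3 were lower, Oas3 and the relatives Oasl1 and Oasl2. Oasl2 (chr5:114896936-114912234, plus strand), a relative that binds RNA sensors, was at 6.74, 6.06 and 5.34 CPM in WT and at 4.85, 4.51 and 4.70 CPM in KO. The groups did not overlap, although the lowest WT library stood near the highest KO library (-0.38, standard error 0.097, adjusted p = 0.0112), and the call was lost without KO replicate 2 (adjusted p = 0.0561). Oas3 and Oasl1 had log2 fold changes of -0.25 and -0.26. Oas1a and Oas2 were not called, at -0.10 and -0.065, and 57.6% of the 50-base stretches of Oas1a occurred in Oas1g. Oas2 was nonetheless lower in each KO library than in each WT library, by a narrow margin of 31.7 CPM for the lowest WT and 31.4 CPM for the highest KO library.

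Among sensors of viral RNA and DNA, 3 of 4 were lower by similar amounts. Zbp1, which senses Z-form nucleic acids, had a log2 fold change of -0.25 from a mean of 142 CPM in WT to 119 CPM in KO. Ifih1 (MDA5) and Ddx58 (RIG-I), the cytosolic sensors of double-stranded RNA, had -0.23 and -0.18. Dhx58 (LGP2), their regulator, was not called, at -0.049 with a 95% interval from -0.14 to 0.045.

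Isg15 and the 2 members that encode enzymes acting on it, Usp18 and Herc6, were lower. Isg15 (chr4:156199424-156200818, minus strand), a ubiquitin-like modifier, was at 24.0, 25.6 and 23.3 CPM in WT replicates 1, 2 and 3 and at 19.6, 19.0 and 19.1 CPM in KO replicates 1, 2 and 3. No KO library reached a WT library, and KO fell by 20.9% (-0.34 on the log2 scale, standard error 0.053, adjusted p = 3.75e-04). Usp18 (chr6:121245906-121270917, plus strand), which removes ISG15 and also holds back IFNAR2 signalling, was at 51.7, 47.3 and 46.5 CPM in WT and at 38.9, 39.1 and 38.1 CPM in KO. The gap exceeded the spread of either group (-0.33, standard error 0.047, adjusted p = 2.13e-04). Herc6, the ISG15 ligase of mice, had the smallest change of the genes called lower, -0.14 (adjusted p = 0.0317), and was not called without any 1 library other than WT replicate 1 (adjusted p up to 0.16). Of the further genes listed, Uba7, which encodes the activating enzyme of ISG15, was not called (0.0058, adjusted p = 0.925).

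In the IFI200 family of nuclear DNA-binding proteins on chromosome 1, 4 of 5 genes were lower. Ifi209 (chr1:173630917-173647928, plus strand) was at 155, 168 and 180.0 CPM in WT and at 120.0, 119.8 and 129 CPM in KO. KO fell by 26.6% (-0.45, standard error 0.051, adjusted p = 3.81e-05). Ifi206, Ifi208 and Ifi203 had -0.30, -0.24 and -0.17, and Ifi213 was not called, at -0.030 with a 95% interval from -0.12 to 0.065. The log2 ratio of Ifi213 to Ifi209 was -0.47 ± 0.031 (SD, n = 3) in WT and -0.053 ± 0.046 (SD, n = 3) in KO (two-sided exact permutation p = 0.1, pair chosen after its values were seen). Counts within this family are uncertain, since 33.4% of the 50-base stretches of Ifi209 occurred in Ifi214 and 13.6% of those of Ifi213 in Ifi208.

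The GTPase Ifi47 and the Schlafen genes gave some of the clearest separations. Ifi47 (chr11:49076587-49096974, plus strand), an immunity-related GTPase, was at 161, 166 and 158 CPM in WT replicates 1, 2 and 3 and at 116, 115 and 117 CPM in KO replicates 1, 2 and 3. KO fell by 28.2% (-0.48, standard error 0.033, adjusted p = 2.64e-07), and the gene shares 111 exon bases on the same strand with Olfr56. Slfn1 (chr11:83116849-83122670, plus strand), a growth regulator of T cells, was at 106, 113 and 113 CPM in WT and at 89.2, 84.1 and 89.0 CPM in KO. The groups did not overlap (-0.34, standard error 0.040, adjusted p = 4.18e-05). Slfn8 (chr11:83002158-83020810, minus strand) was at 80.2, 84.5 and 90.3 CPM in WT and at 66.5, 67.4 and 68.6 CPM in KO. This came to -0.33 (standard error 0.044, adjusted p = 1.18e-04), and Slfn5 had -0.30, so that all 3 Schlafen genes were lower by a like amount.

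**Figure D3:**
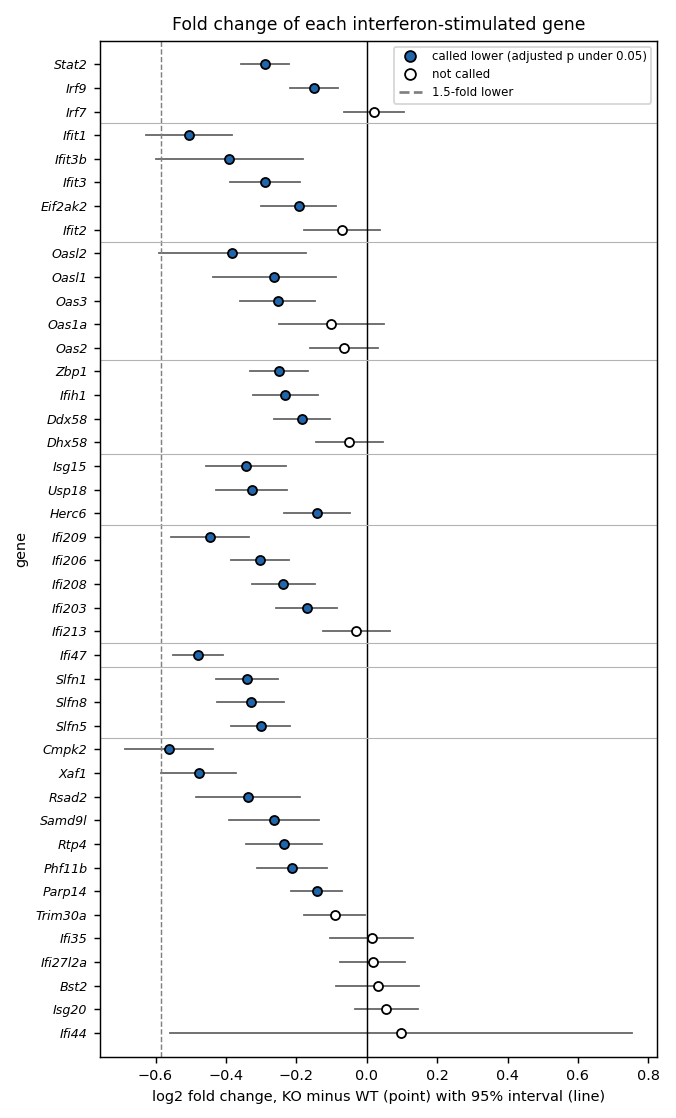
Points give the log2 fold change, KO minus WT, of each of the 42 genes and lines its 95% interval, with filled points for the 30 called lower and the dashed line at a 1.5-fold decrease. The filled points lie between -0.14 and -0.56, and none of the points reaches the dashed line.

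Of the 13 remaining antiviral genes, 7 were lower and 6 were not called. Cmpk2 (chr12:26469204-26479837, plus strand), a mitochondrial nucleotide kinase, was at 24.4, 24.8 and 21.8 CPM in WT replicates 1, 2 and 3 and at 16.2, 16.0 and 16.2 CPM in KO replicates 1, 2 and 3. At -0.56 (standard error 0.058, adjusted p = 1.18e-05) it had the most negative change among the 42 genes, and KO fell by 31.9%. Rsad2 (chr12:26442746-26456452, minus strand), its neighbour, encodes viperin, which blocks viral RNA synthesis, and was at 10.2, 9.75 and 10.5 CPM in WT and at 8.02, 8.30 and 7.67 CPM in KO. The change was -0.34 (standard error 0.069, adjusted p = 0.00298). Xaf1 (chr11:72301629-72313733, plus strand), a factor that promotes apoptosis, was at 49.6, 52.9 and 56.3 CPM in WT and at 37.9, 37.0 and 39.1 CPM in KO. Here KO fell by 28.3% (-0.48, standard error 0.049, adjusted p = 1.28e-05). Samd9l, Rtp4, Phf11b and Parp14 were lower, with log2 fold changes of -0.26, -0.24, -0.21 and -0.14. Of the 50-base stretches of Phf11b 26% occurred in Phf11a, and of those of Rtp4 11.6% occurred in Gm45338. Trim30a was not called, at -0.091 (adjusted p = 0.12), but passed with library size as the only scaling and without WT replicate 1.

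The genes that were not called included the most abundant per length. Ifi27l2a, a small membrane protein, had the highest level, 504 CPM per kilobase of exon in WT and 510.0 in KO, and its 95% interval on the log2 scale ran from -0.075 to 0.11. Bst2 (tetherin), which holds budding virions at the cell surface, came next with 97.2 and 99.5 CPM per kilobase and an interval from -0.086 to 0.15. Ifi35 and Isg20, an exonuclease, had log2 fold changes of 0.014 and 0.056. Ifi44 averaged 0.838 CPM in WT and 0.899 CPM in KO, with an interval from -0.56 to 0.75. The log2 ratio of Bst2 to Isg15, chosen after its values were seen, was 1.85 ± 0.14 (SD, n = 3) in WT and 2.22 ± 0.037 (SD, n = 3) in KO (two-sided exact permutation p = 0.1).

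The libraries of a group were alike in these genes. The median SD of log2 CPM over the 42 genes was 0.057 in WT and 0.042 in KO, against 0.11 and 0.073 over all genes tested. This comparison was not matched for expression level. The median deviation of the 42 genes from their group mean lay between -0.016 (KO replicate 2) and 0.022 (KO replicate 3) on the log2 scale. Of the 42 genes, 16, 29 and 22 lay above their group mean in WT replicates 1, 2 and 3. In KO replicates 1, 2 and 3 these numbers were 21, 13 and 29.

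Several of these genes lie in tandem groups, described here together with a list of 73 further interferon-stimulated genes, of which 71 were tested. On chromosome 11, 6 of 7 Schlafen genes between 82951349 and 83215154 were lower, with Slfn3 not called. On chromosome 19, 4 of 6 genes of the IFIT group between 34550694 and 34650009 were lower, with Ifit2 and Ifit1bl2 not called. On chromosome 5, 1 of 5 genes from Oas2 to Oas1a was lower, namely Oas3. On chromosome 1, 4 of 8 genes from Aim2 to Ifi205 were lower, and all 4 are members. On chromosome 16 Parp14 and its neighbours Dtx3l and Parp9 were lower. Lower genes on chromosome 7 were 2 of 5 from Trim34a to Trim30a and 1 of 4 from Ifitm2 to Irf7. Those on chromosome 14 were 2 of 4 from Phf11a to Phf11c and 2 of 3 from Psme1 to Irf9. In groups without members, 2 of 3 genes from Sp110 to Sp100 and 3 of 4 from Daxx to Psmb8 were lower. So were 2 of 3 from Ms4a4c to Ms4a6b and 2 of 4 from Ly6e to Ly6c2, where Ly6c1 was higher. The shares among all genes tested were 12.1% lower and 12% higher.

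Among all 71 further genes, 35 were lower and 4 were higher (12.1% and 12% over all genes tested), with a median log2 fold change of -0.13. Slfn4 and Gm4951, at low levels of 2.42 and 1.42 CPM in WT, had -1.23 and -1.01 and were the 2 that passed the study's cutoffs. Ifit1bl1, Parp11, Slfn2 and Tor3a had -0.57, -0.55, -0.49 and -0.43. Cd274, which encodes PD-L1, was higher, at 67.1, 66.9 and 70.7 CPM in WT and 86.5, 82.3 and 85.9 CPM in KO (0.32, adjusted p = 5.55e-05). The other 3 that were higher were Ly6c1, Ogfr and Trim26, with 0.15, 0.12 and 0.11. Of 18 alternative settings, the call was lost in 1 for Ly6c1 (highest adjusted p = 0.0534), 7 for Ogfr (0.163) and 5 for Trim26 (0.079).

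**Figure D4:**
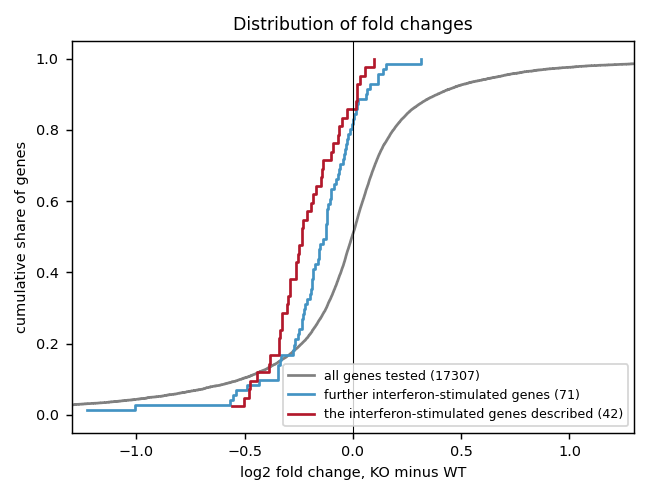
Cumulative share of genes (vertical) by log2 fold change, KO minus WT (horizontal, drawn from -1.3 to 1.3), for the 42 interferon-stimulated genes, the 71 further ones and all 17307 genes tested. The curve of the 42 genes crosses its middle at -0.24, that of the further genes at -0.13 and that of all genes near 0.

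Above these genes in the pathway, interferon RNA was at or near the detection limit. Of 19 genes of type I and type III interferons, 11 had no count in the 6 libraries, where a count of 0 allows up to 0.0145 to 0.0223 CPM (3 counts per library, counting error only), and the highest value was 0.253 CPM, of Ifnz in WT replicate 3. Ifng, the type II interferon, was at 9.99, 8.32 and 8.50 CPM in WT replicates 1, 2 and 3 and at 15.4, 13.3 and 15.0 CPM in KO replicates 1, 2 and 3. It was higher in KO without overlap, by 0.70 on the log2 scale (standard error 0.083, adjusted p = 4.45e-05).

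Of 9 receptor, kinase and proximal factor genes reported, Il10rb was lower (-0.12) and 2 were higher, Ifngr2 (0.41) and Jak2 (0.18), which serve the receptor of interferon-γ, where 12.1% of all genes tested were lower and 12% higher. The call of Il10rb was lost in 4 of 18 alternative settings (highest adjusted p = 0.112). Ifnar1 was at 202, 204 and 200.4 CPM in WT and at 208, 208 and 211 CPM in KO, and its log2 fold change of 0.050 was not called (95% interval -0.016 to 0.12). Each KO library nonetheless lay above each WT library, an order found in 19.3% of all genes. Ifnar2 averaged 74.5 CPM in WT and 72.6 CPM in KO, with overlapping libraries and an interval from -0.13 to 0.052. Neither receptor chain changed by an amount that the test could separate from 0. Of 11 brakes on the pathway, 4 were higher, the corepressor gene Irf2bp2 (0.57), Socs3 (0.31), Ptpn11 (0.13) and Trim24 (0.12), and Ptpn6 was lower (-0.12), against the same shares of all genes. The calls of Ptpn11, Trim24 and Ptpn6 were lost in 5, 7 and 3 of 18 alternative settings (highest adjusted p = 0.0874, 0.119 and 0.0999). Socs1, the suppressor of JAK kinases most tied to interferon, was not called at -0.029, and the number of brakes called ranged from 2 to 5 when single libraries were left out, falling to 2 without WT replicate 2, KO replicate 2 or KO replicate 3 and to 3 without KO replicate 1.

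Upstream of interferon production, 6 of 22 sensors and adaptors were lower and 1 was higher, while 12.1% of all genes tested were lower and 12% higher. Tlr7, the endosomal sensor of single-stranded RNA, averaged 20.2 CPM in WT and 15.6 CPM in KO (-0.36), and Cgas, which senses cytosolic DNA, 8.21 and 6.43 CPM (-0.35). Irf8, Samhd1, Tmem173 (STING) and Irf3 were lower, with -0.20, -0.19, -0.17 and -0.12, and Traf6 was higher, with 0.23. The call of Irf3 was lost in 3 of 18 alternative settings (highest adjusted p = 0.182). Irf8 and Tlr7 are also expressed by the B cells and dendritic cells whose markers moved with the groups, and the part of those cells was not tested.

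**Figure D5:**
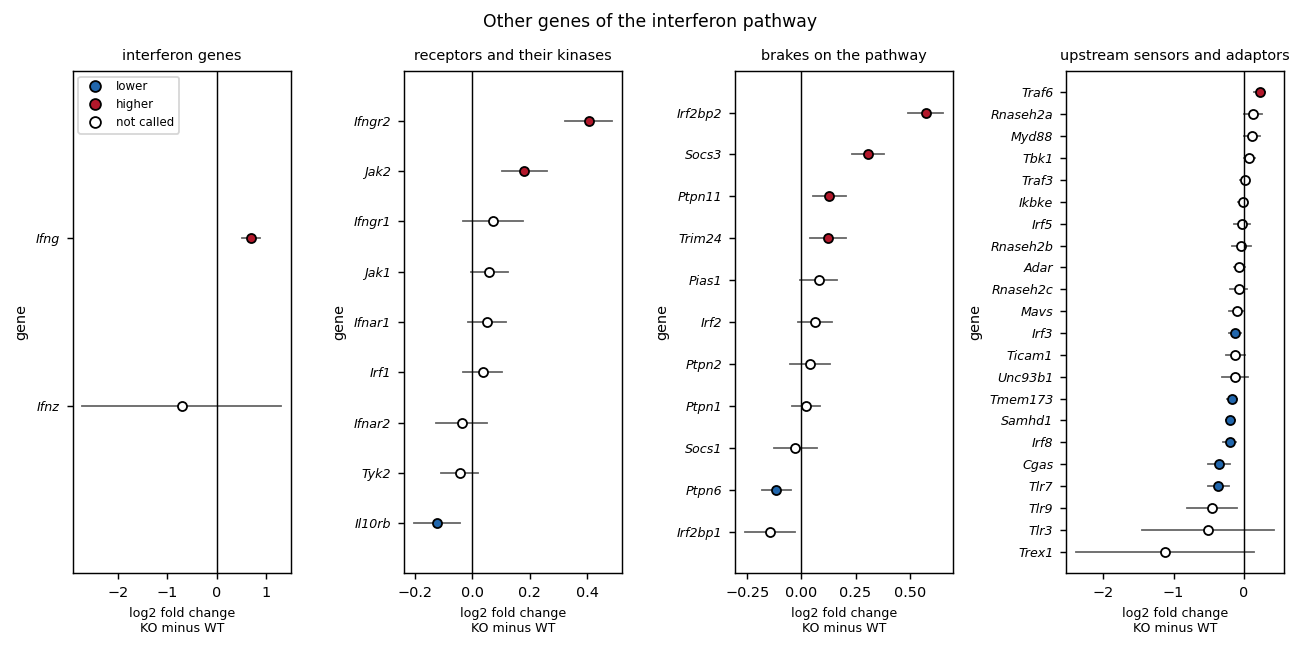
Log2 fold change, KO minus WT, of the genes reported from 4 lists of the interferon pathway, with lines for 95% intervals and colours for genes called lower or higher. Ifngr2 stands highest among receptors and kinases and Irf2bp2 highest among brakes, while Ifnar1, Ifnar2 and Socs1 lie near 0.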

How the data were processed

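Total RNA of 6 libraries, grouped by sample label, was prepared with a TruSeq kit. Raw counts for each gene symbol, not normalized, were deposited. Per the labels, HISAT2, DESeq2 and mm10 were used; the counter, its treatment of strand and repeated reads, and how this table was made are not given in the sources used here. For 40 repeated symbols the row of highest total was used under the symbol. The members and lists were chosen with earlier results of these data known. Genes were filtered by filterByExpr, scaled by TMM and tested by the robust quasi-likelihood test of edgeR 4.0.16 (R 4.3.3). Alternatives used DESeq2 1.42.0, limma 3.58.1 (voom), other scalings and filters, a block and left-out libraries. Standard errors came from the F statistic. Library totals were 133283969 to 209041812 counts.

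Genes given with every library were Zfp335, Irf7, Irf9, Stat2, Isg15 and the 12 members with the largest absolute log2 fold change among those called at an average log2 CPM of 1 or more. From the pathway and further lists, Ifnar1, Ifnar2, Socs1 and up to 6 called genes per list were named, and of the marker lists those of highest level. Ly6c1, Ogfr, Trim26, Uba7, Trex1, Il2ra, Cd3g, Ctla4, Tnfrsf18, Siglech, Ccr9, Pacsin1, Lyz2, Itgam, Cd14, C1qa, C1qb, C1qc, neighbours and overlapping genes were named after their values were seen. Positions came from GENCODE annotation of GRCm38 and exon length from the union of exons. Shared sequence was the share of 50-base transcript stretches found in other genes. Some listed genes are not reported here.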

Additional observations from a re-analysis of the deposited data

How the results depend on the processing

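Of the 30 genes called lower, all 30 had a negative log2 fold change under each of 18 alternatives and 24 passed the threshold under all of them. The number of genes lower was 30 or 31 under the other scalings, tools, filters and gene exclusions, and 25 to 30 when 1 library was left out. The calls lost then were Herc6 (each library but WT replicate 1, highest adjusted p = 0.16), Oasl1 (WT replicates 1 and 2, KO replicates 1 and 2, 0.16), Parp14 (KO replicates 1 and 2, 0.0542), Eif2ak2 (WT replicate 2, KO replicate 2, 0.0719), Ifi203 (KO replicate 1, 0.0506) and Oasl2 (KO replicate 2, 0.0561). The median ranged from -0.27 (library size only) to -0.21 (without WT replicate 3). With library size only as scaling 1 gene passed the study's cutoffs; in fits without 1 library this number was 0 to 1 (Cmpk2, without WT replicate 3). Among genes not called, the sign reversed with library size only for Irf7 (-0.010), Ifi27l2a (-0.014) and Ifi35 (-0.017), and with upper-quartile factors for Ifi35 (-0.00072). When 1 library was left out, Irf7 went from -0.00513 to 0.049, Ifi27l2a from -0.024 to 0.059, Ifi44 from -0.22 to 0.48, Ifnar2 from -0.079 to 0.0015, Ifi213 from -0.068 to 0.014, Bst2 from -0.0088 to 0.10, Ifi35 from -0.046 to 0.075 and Socs1 from -0.060 to 0.023. Calls in all genes ranged from 2740 (without WT replicate 2) to 4996 and brakes called from 2 to 5 in these fits, with 4170 and 5 on all libraries; the cause was not tested. Deviations from the group means in libraries with the same replicate number had correlations of 0.028, 0.0082 and 0.033. With 3 libraries per group, these values cannot settle whether the numbers pair libraries. The fit with a replicate block called 30 genes lower with a median of -0.24. Dividing the counts by 4, added after seeing the data, left 30 genes lower.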
